A study of Mus musculus with 25 samples.

Results

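H3K27me3 peaks that lie far from any gene were described in 3 mouse cell systems. The peaks were those whose nearest autosomal protein-coding gene record was 100000 bp or more away, a rule that uses position only. They numbered 43061 of the 213014 peaks in 3 deposited lists, 1 list each for fibroblast line A, fibroblast line B and neural progenitor cells (NPC). The stretches of autosome that lie this far from every protein-coding record, called deserts here, numbered 1386 and summed to 657 Mb, or 27.3% of the 2402 Mb spanned by peaks and gene records.

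The study asked how silencing at Polycomb target genes is remembered, and profiled H3K27me3 in 18 of its 25 libraries. NPC were wild-type cells derived from embryonic stem cells, assayed by CUT&RUN, which releases antibody-bound chromatin from permeabilized cells with a tethered nuclease. There were 2 libraries each of NPC with UNC1999 at 2 uM and A395 at 4 uM, which inhibit PRC2, of NPC after washout of both, and of untreated NPC. Lines A and B were c-myc-immortalized mouse embryonic fibroblasts (MEF) assayed by ChIP-seq, with 2 libraries per line and genotype. These were Ezh2 -/- with retroviral pMSCV-Ezh2, Ezh2 -/- and wild type in line A, and Ezh2 endogenous rescue, Ezh2 -/- (reversible) and wild type in line B. The other 7 libraries, labelled as line A Ezh2 -/-, held an input, RNA polymerase II, H3K4me3 and H3K36me3. The lists give peak positions without heights, and which libraries were used to call each of them is not stated. Genotypes and treatments were therefore not compared, depth is unknown, and with 1 list per system no difference could be tested against a spread between libraries. Absence of a peak from a list therefore does not show a lower signal, and between NPC and MEF the assay and the cell type cannot be told apart.

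H3K27me3 is placed by Polycomb repressive complex 2 (PRC2), whose catalytic subunit is Ezh2, and is read as a mark of silenced chromatin. It is best known at CpG-rich promoters of developmental regulators, from which it can spread into broad domains. Large gene deserts often adjoin regulators of development and hold enhancers that act on them over long distances, so a mark inside a desert can lie in regulatory sequence of a distant gene.

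The rule leaves non-coding genes inside the deserts, and these give named sequences under the peaks. Of 100 miRNA hairpins in deserts with a RefSeq sequence (build GRCm38.p6), 17 overlapped a peak of at least 1 list. Line A peaks met 6 of the 100, line B peaks 9 and NPC peaks 7, against 6.39%, 4.66% and 4.57% of all desert sequence that these lists covered. A hairpin was met by an overlap of 1 bp or more, whereas the covered share counts bases. The hairpins met are not all separate sites, since Mir216b overlaps Mir216c and Mir299a overlaps Mir299b on the opposite strand. None met a peak of all 3 lists, and 5 met peaks of a pair of lists. The mature forms below are shown because their genes are known for tissue-restricted expression, in neurons for miR-137, in the pancreas for miR-216b and in epithelia for miR-205, and because the miR-135a hairpin lay in a very wide peak. These 4 were chosen after the values were seen. Capitals mark the seed, bases 2 to 8, and no 2 of the 4 share it.
mmu-miR-137-3p: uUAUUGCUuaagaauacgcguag
mmu-miR-216b-5p: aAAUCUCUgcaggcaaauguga
mmu-miR-205-5p: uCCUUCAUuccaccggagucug
mmu-miR-135a-5p: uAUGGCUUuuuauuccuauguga

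The Mir137 hairpin (chr3:118433857-118433929, plus strand) lies 128 kb from Dpyd, which encodes a pyrimidine-degrading enzyme, and 565 kb from Snx7. All of its 73 bp lay in an NPC peak of 19326 bp, and 34 bp lay in a line B peak of 4823 bp. Line A had no peak there. The Mir216b hairpin (chr11:28746191-28746276, plus strand) lies between Ccdc85a and Efemp1, 107 kb from Efemp1. It was covered over all of its 86 bp by an NPC peak of 79957 bp and by a line B peak of 3245 bp, again with no line A peak. Mir205 (chr1:193507463-193507530, minus strand) and Mir135a-2 (chr10:92072086-92072185, minus strand) were covered in NPC and not in either fibroblast list. The Mir135a-2 hairpin lies 613 kb from Nedd1, the nearer of its flanking genes, and the NPC peak over it was 96236 bp wide.

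Promoters of long non-coding RNA (lncRNA) genes lie in the deserts as well. RefSeq gave 2014 lncRNA promoter windows there, each from 250 bases before to 50 bases after a start. Of these, 248 lay wholly in a line A peak, 139 in a line B peak and 161 in an NPC peak, and 20 windows of 15 genes lay wholly in peaks of all 3 lists. Of 20085 autosomal protein-coding windows, 2309, 2606 and 1594 lay wholly in a peak of line A, line B and NPC. Peaks covered 6.39%, 4.66% and 4.57% of all desert sequence, a measure that does not require a whole window. Desert windows held few CpG dinucleotides. The motif CG, which reads the same on both strands, occurred 15 or more times in 33 of the 2014 desert windows (1.64%), against 35.2% of all 31396 autosomal promoter windows and 12.3% of lncRNA windows. It did so in 2 of the 20 windows in peaks of all lists, and in 24 (1.49%) of the 1612 windows that lay wholly in no peak. The 3 windows below show this range, with CG in capitals. The first held 38 CG, the most of the 20 windows, and lies on the plus strand at chr9:122572251-122572550, 175 kb from the nearest protein-coding gene between Abhd5 and Topaz1. The second held 12 CG and lies on the plus strand at chr9:61081643-61081942, in the desert between Uaca and Tle3. The third held 0 CG and lies on the minus strand at chr8:26388995-26389294, in the desert between Thap1 and Zfp703.
9530059O14Rik: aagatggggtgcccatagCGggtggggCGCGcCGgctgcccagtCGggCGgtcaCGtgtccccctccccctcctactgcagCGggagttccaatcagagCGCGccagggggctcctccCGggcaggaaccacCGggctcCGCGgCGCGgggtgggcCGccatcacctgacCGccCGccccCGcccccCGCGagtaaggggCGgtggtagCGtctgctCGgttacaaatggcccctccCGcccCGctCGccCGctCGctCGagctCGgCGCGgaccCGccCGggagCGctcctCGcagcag
Gm34004: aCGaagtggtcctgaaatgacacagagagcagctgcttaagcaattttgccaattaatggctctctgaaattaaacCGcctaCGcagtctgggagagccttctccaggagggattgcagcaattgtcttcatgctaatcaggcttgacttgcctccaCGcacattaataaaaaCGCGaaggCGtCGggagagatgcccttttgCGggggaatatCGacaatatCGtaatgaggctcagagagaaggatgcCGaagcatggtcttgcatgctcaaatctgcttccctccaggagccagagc
Gm39148: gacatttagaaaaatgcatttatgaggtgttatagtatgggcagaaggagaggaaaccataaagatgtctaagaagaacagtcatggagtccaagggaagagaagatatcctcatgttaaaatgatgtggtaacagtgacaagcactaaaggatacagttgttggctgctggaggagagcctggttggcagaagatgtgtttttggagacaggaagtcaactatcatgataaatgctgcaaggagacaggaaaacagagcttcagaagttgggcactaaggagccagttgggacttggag

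Of the 2031 lncRNA gene records that deserts hold, 638 (31.4%) overlapped a line A peak, 536 (26.4%) a line B peak and 519 (25.6%) an NPC peak, and 144 a peak of each list. These records make up 8.30% of the desert sequence. Among desert peaks, 11.7% for line A, 10.7% for line B and 10.9% for NPC overlapped such a record. An overlap of 1 bp was enough, so these shares of peaks are not on the same scale as the share of bases.

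Desert peaks made up a larger share of the NPC list than of either fibroblast list. They were 15697 of 86235 peaks in line A (18.2%, 95% exact binomial interval 17.9 to 18.46%), 15921 of 81972 in line B (19.4%, interval 19.2 to 19.7%) and 11443 of 44807 in NPC (25.5%, interval 25.1 to 25.9%). Intervals here and below cover counting error only, and peaks are not replicates. By length, desert peaks held 39.7 Mb in line A, 29.1 Mb in line B and 28.8 Mb in NPC, or 14.4%, 12.4% and 21.0% of the length covered by each list. In each list the share of peaks lay below the 27.3% of the autosomes that deserts occupy. The peak nearest the limit on its inner side was 100003 bp from a gene for line A, 100001 bp for line B and 100000 bp for NPC, while on the outer side it was 99995, 99993 and 99983 bp.

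NPC desert peaks also reached farther from genes. The median distance to the nearest protein-coding record was 189 kb in line A, 210.0 kb in line B and 253 kb in NPC. At 500 kb or more from a gene stood 1211 line A peaks (7.71% of the desert peaks), 2147 line B peaks (13.5%) and 2356 NPC peaks (20.6%). The most distant ones lay on chromosome 2 between Zeb2 and Acvr2a in line A, 1834 kb from the nearer gene, and on chromosome 18 between Celf4 and Pik3c3 in line B and NPC, at 2144 and 2241 kb.

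Within deserts the covered share of sequence was lower at each step away from genes, except at the last step in line A. For this comparison peaks that cross a limit were split at it. At 100 to 150 kb from a gene, peaks covered 13.5% of the sequence for line A, 9.82% for line B and 6.63% for NPC. At 200 to 300 kb the values were 7.94%, 5.33% and 5.14%. At 500 to 1000 kb they were 1.24%, 1.41% and 3.00%, and beyond 1000 kb 1.47%, 0.812% and 1.31%. Between 300 and 1000 kb NPC coverage was above that of both lines, and at 300 to 500 kb it was 4.38%, against 4.09% in line A and 3.38% in line B. Without chromosome 7 that order did not hold at 300 to 500 kb, where NPC had 3.74%, against 3.95% in line A. Over all deserts peaks covered 6.39% for line A, 4.66% for line B and 4.57% for NPC, against 13.4%, 11.7% and 6.13% of the remaining sequence. The desert share was below that of the remaining sequence on 19 of 19 autosomes in both lines and on 15 in NPC.

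**Figure D1:**
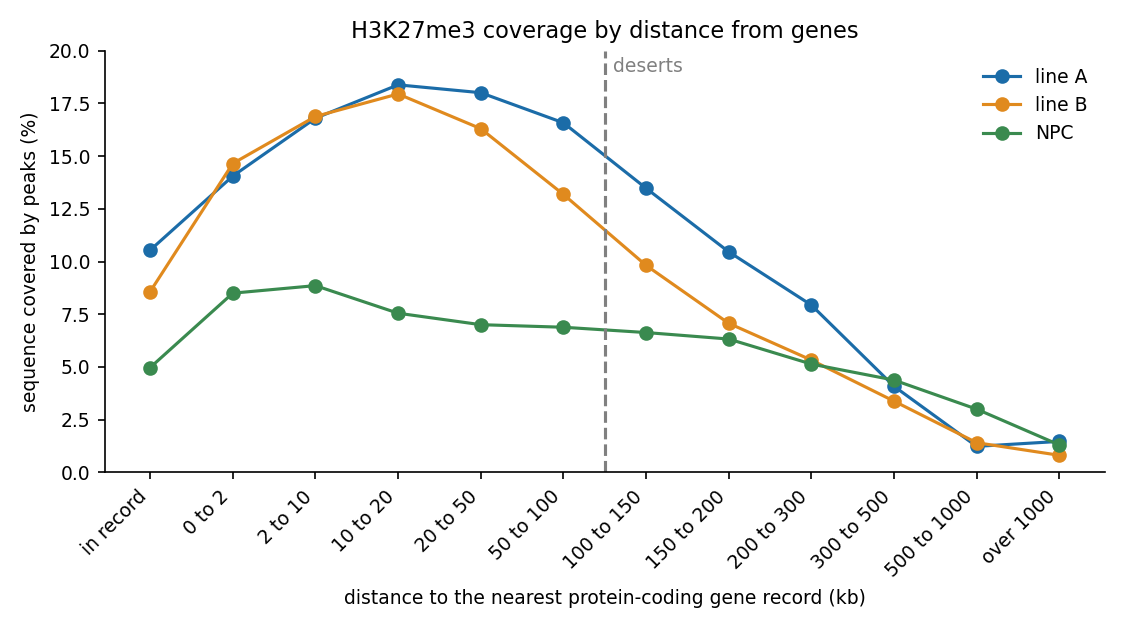
Share of autosomal sequence covered by H3K27me3 peaks (y axis, %) in classes of distance to the nearest protein-coding gene record (x axis, kb), with 1 line per peak list; the dashed line marks where deserts begin. Line A and line B reach 18.4% and 17.95% at 10 to 20 kb and 1.24% and 1.41% at 500 to 1000 kb, while NPC stands at 8.86% at 2 to 10 kb and 3.00% at 500 to 1000 kb.

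Desert peaks were mostly narrow. Their median width was 1151 bp in line A, against 1486 bp for the other peaks of that list. In line B it was 838 bp for desert peaks and 1215 bp for the others, and in NPC 1295 and 1526 bp. The desert median was the lower one on 19 of 19 autosomes in each list. Peaks of 10 kb or more made up 4.33% of desert peaks and 7.04% of the others for line A, 2.205% and 6.54% for line B, and 3.43% and 5.77% for NPC. These few wide peaks held 29.6%, 20.2% and 27.2% of the desert peak length in line A, line B and NPC.

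**Figure D2:**
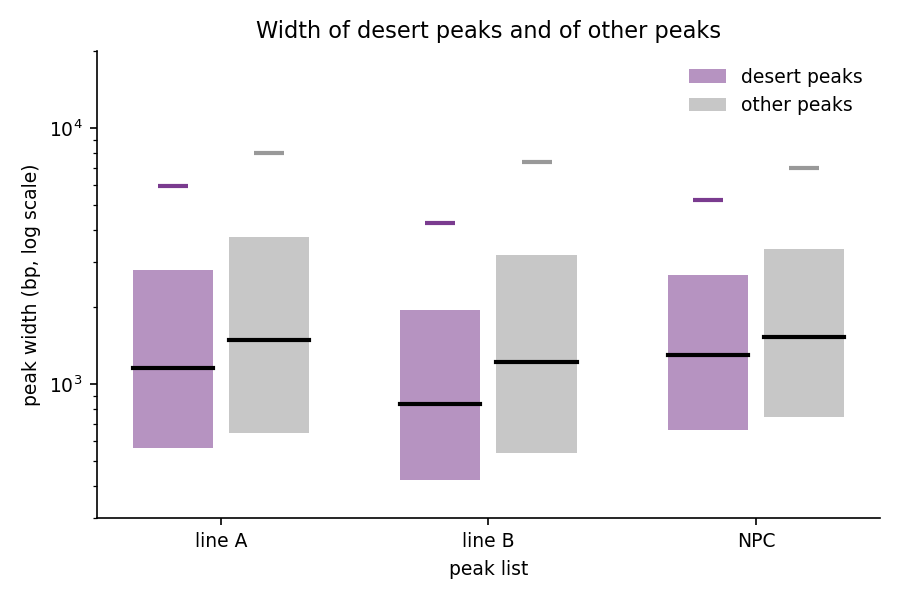
Width of desert peaks and of the other peaks of the same list (y axis, bp, log scale) in line A, line B and NPC. Boxes span the quartiles, black lines are medians and short dashes the 90th percentile; the desert median is lower in each list, 1151 against 1486 bp, 838 against 1215 bp and 1295 against 1526 bp.

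Fibroblast desert peaks stood in runs more often than NPC ones. When desert peaks less than 3 kb apart were joined, line A gave 7627 blocks, line B 8462 and NPC 8565. A block of a single peak made up 56.9% of blocks for line A, 61.5% for line B and 77.2% for NPC. The lines also had more desert peaks to join (15697 and 15921, against 11443 in NPC), and the part of peak number in this was not tested. Blocks of 50 kb or more numbered 137, 64 and 42, and the longest spanned 296 kb in line A, 154 kb in line B and 256 kb in NPC. The widest single desert peak of line A covered 116.5 kb of chromosome 8 (26442475 to 26558976), 278 kb from Thap1 and 418 kb from Zfp703, which encodes a zinc finger repressor, and line B peaks covered 87.4% of it. The next in that list lay in the same desert (chromosome 8, 26587845 to 26678783, 90.9 kb). The third lay on chromosome 4 (87525069 to 87614394, 89.3 kb) between Slc24a2 and the transcription elongation factor gene Mllt3. In line B the widest covered 106.6 kb of chromosome 13 (107199121 to 107305678) between Kif2a and Zswim6, and line A peaks covered 96.3% of it. The others lay on chromosome 1 (73727492 to 73795695, 68.2 kb) between Tnp1 and Tns1 and on chromosome 9 (69598065 to 69653585, 55.5 kb), 104 kb from the forkhead factor gene Foxb1. In NPC the widest was 131 kb on chromosome 19 (14792806 to 14924029), 195 kb from the Groucho co-repressor gene Tle4, with 7.46% covered in line A and 0% in line B. The second, on chromosome 9 (61530169 to 61647987, 118 kb), stood 112 kb from the related gene Tle3, and the third, also on chromosome 9 (30104892 to 30222143, 117 kb), 142 kb from the neuronal adhesion gene Ntm.

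Chromosomes differed most in NPC. There peaks covered between 2.16% of the desert sequence on chromosome 3 and 17.98% on chromosome 7, with a median of 3.77%. Chromosome 7 held 1410 NPC desert peaks, 12.3% of them, at 56.9 per Mb of desert against a median of 15.8 over autosomes. The other NPC peaks were dense there too and covered 14.6% of the remaining sequence of that chromosome. In line B chromosome 7 had the lowest value, 1.86% of desert sequence covered with 271 peaks, and in line A it stood at 8.25%. Line B peaks were sparse on the rest of chromosome 7 too and covered 3.99% of it, against 11.7% of the remaining sequence of all autosomes. Line A ranged from 3.39% on chromosome 16 to 10.5% on chromosome 8, and line B reached 7.40% on chromosome 9. Chromosomes 9 and 19 were high in NPC as well, at 11.3% and 10.6%. Without chromosome 7 the covered share of deserts was 6.31% for line A, 4.78% for line B and 4.04% for NPC. Coverage at 500 to 1000 kb from a gene was then 1.03%, 1.44% and 2.57%, highest in NPC.

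**Figure D3:**
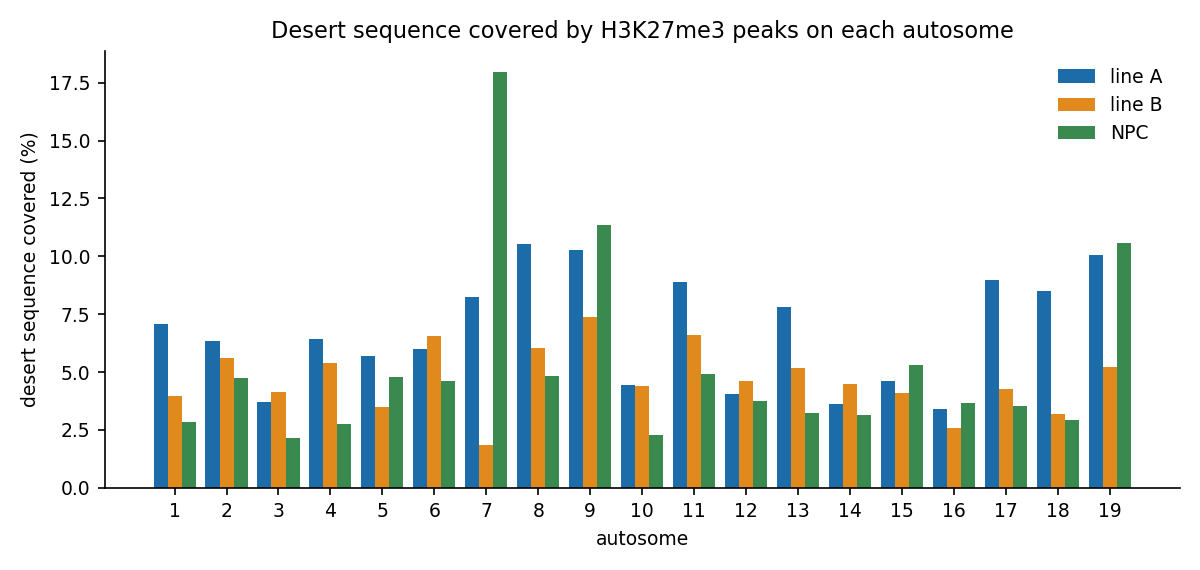
Share of desert sequence covered by H3K27me3 peaks (y axis, %) on each autosome (x axis), with bars for line A, line B and NPC. NPC stands at 17.98% on chromosome 7, where line B has its lowest value of 1.86%.

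Desert peaks were shared between lists less often than other peaks. An overlap was at least 1 bp. Of line A desert peaks, 4956 (31.6%, interval 30.8 to 32.3%) met a line B peak, against 51.1% of the other line A peaks and 47.5% of the whole list. Of line B desert peaks, 5526 (34.7%, interval 33.97 to 35.5%) met a line A peak, against 54.5% of the others and 50.7% of the list. NPC desert peaks met line A at 3054 peaks (26.7%, interval 25.9 to 27.5%) and line B at 2307 (20.2%, interval 19.4 to 20.9%), against 52.4% and 44.5% of the other NPC peaks and 45.8% and 38.3% of the list. The share in deserts was below that of the other peaks on 19 of 19 autosomes for line A in line B and for NPC in each line, and on 17 of 19 for line B in line A.

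The gap was small between fibroblast deserts and NPC. Line A desert peaks met an NPC peak in 20.2% of cases (interval 19.6 to 20.9%), against 24.7% of the other line A peaks and 23.9% of the list. For line B these shares were 16.3% (interval 15.7 to 16.9%), 22.0% and 20.9%. On 6 of 19 autosomes the line A desert share was the higher one, as it was on 3 for line B. Width differed between desert peaks and the others and bears on overlap. Among line A peaks under 500 bp, 11.6% in deserts and 12.1% elsewhere met an NPC peak, and among those of 5000 bp or more 39.97% and 48.8%. Against line B the gap was present in each width class, with 19.6% of line A desert peaks under 500 bp and 32.3% of the others, and 57.4% and 78.4% at 5000 bp or more. Coverage by the other list also bears on it, since line B peaks covered 4.66% of desert sequence and 11.7% of the rest, whereas for NPC these were 4.57% and 6.13%. The part of coverage in these gaps was not tested. Peaks that met both other lists were 8.27% of desert peaks and 15.9% of the others for line A, 8.67% and 16.8% for line B, and 11.5% and 35.4% for NPC.

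Most deserts held at least 1 peak, and many held peaks of all lists. A line A peak stood in 871 of the 1386 deserts (62.8%), a line B peak in 921 (66.5%) and an NPC peak in 862 (62.2%). All 3 lists had a peak in 521 deserts (37.6%), with a median length of 394.9 kb. No list had one in 192 (13.9%), with a median length of 54.7 kb. Both fibroblast lines without NPC marked 185 deserts, and NPC alone marked 108. Of the 185 deserts of 1 Mb or more, 110 held peaks of all lists and 1 held none. Coverage was concentrated, with 50% of the covered desert length in 97 deserts for line A, 105 for line B and 78 for NPC. Across the 939 deserts of 100 kb or more between 2 gene records, the covered share had a Spearman rho of 0.51 between line A and line B, 0.26 between NPC and line A and 0.20 between NPC and line B. These values are a description, since the points share the same genome sequence in each list.

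Of the 8 deserts with the largest minimum of covered length over the 3 lists, 4 adjoined a gene of the developmental lists, against 214 of the 1376 deserts between 2 records. The first adjoined Zfhx3, a zinc finger homeobox factor gene (chromosome 8, 107688483 to 108179310), and was covered over 319 kb in line A, 261 kb in line B and 210.1 kb in NPC, or 65.0%, 53.3% and 42.8% of its length. The desert between Uaca and Tle3 (chromosome 9, 60980432 to 61272325) was covered over 81.9%, 58.2% and 66.2% in line A, line B and NPC. That between Pax1, a factor of the developing vertebrae, and Foxa2, of endoderm and floor plate (chromosome 2, 147475050 to 147942876), was covered over 43.7%, 34.6% and 47.9%. The desert beside Zfp703 (chromosome 8, 26264152 to 26877335) was covered over 67.3%, 56.6% and 26.1%, and that beside Gata3, a factor of T cells and the inner ear (chromosome 2, 7496342 to 9757077), over 6.77%, 9.81% and 11.7% of 2261 kb. Beside Id4, which encodes an inhibitor of basic helix-loop-helix factors (chromosome 13, 47347992 to 48161115), the values were 26.04%, 36.0% and 20.7%. The remaining ones lay between Tmem72 and the chemokine gene Cxcl12 on chromosome 6 (56.6%, 71.1% and 72.0%) and between Plcl1 and Hsfy2 on chromosome 1 (56.9%, 51.1% and 26.8%). The 4 are the deserts of Zfhx3, of Pax1 with Foxa2, of Zfp703 and of Gata3.

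In other deserts coverage was less even between the lists, and some were covered in both fibroblast lines with little in NPC. In line A the most covered lay between the proliferation gene Mki67 and the DNA repair gene Mgmt (chromosome 7, 135816451 to 136794462), at 636 kb in line A, 25.7 kb in line B and 20.6 kb in NPC. Next came Nox3 to Arid1b on chromosome 17 (568, 78.6 and 25.2 kb) and Slc10a2 to Efnb2 on chromosome 8 (498, 100.5 and 14.6 kb). The desert from Zfp608 to Gramd3 on chromosome 18 followed that of Zfp703, with 407, 57.6 and 5.72 kb. In line B the first lay between Mtpn and the muscarinic receptor gene Chrm2 (chromosome 6, 35639889 to 36287990), at 244 kb in line A, 401 kb in line B and 25.3 kb in NPC. The second lay beside Meis1, whose product is a partner of Hox factors (chromosome 11, 19119652 to 19824441), at 322 and 357 kb in the lines and 0 kb in NPC. Beside Nr4a3, a nuclear receptor gene (chromosome 4, 47583234 to 47945077), line B peaks covered 81.1% of the desert, against 53.4% in line A and 17.4% in NPC.

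The most covered NPC desert lay between Ets1 and the synaptic adhesion gene Kirrel3 (chromosome 9, 32857821 to 34385852), at 772 kb in NPC, 176 kb in line A and 105 kb in line B. The next 3 lay on chromosome 7, where NPC peaks were dense outside deserts as well. Between Hs3st4, for a heparan sulfate enzyme, and 4930571K23Rik the coverage was 535 kb in NPC, 4.98 kb in line A and 0 kb in line B. Beside the teneurin gene Tenm4 it was 533, 8.13 and 13.3 kb, and beside Nr2f2, a nuclear receptor of mesenchyme and interneurons, 531, 237 and 3.52 kb. The deserts from Tle4 to Psat1 on chromosome 19 and from Slc4a3 to the ephrin receptor gene Epha4 on chromosome 1 held 440 and 413 kb in NPC, 139 and 10.8 kb in line A, and 16.03 and 26.7 kb in line B.

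Deserts with peak coverage in a single list numbered 70 for line A, 68 for line B and 107 for NPC. The first in line A was Stxbp5 to Adgb on chromosome 10 (67.2 kb), followed by those beside Mef2c, a muscle and neural factor (65.4 kb), beside Tox3 (65.1 kb) and beside the semaphorin gene Sema6d (56.7 kb). In line B these were Nrsn1 to Hdgfl1 on chromosome 13 (127.6 kb), Cadps to Synpr (59.3 kb), Abca1 to Slc44a1 (54.9 kb) and Cdh7 to Cdh19, a pair of cadherin genes (42.7 kb). All 4 in NPC lay on chromosome 7. They were Glrx3 to Tcerg1l (330.3 kb), Gm33989 to Vstm2b (241 kb), Snrpn to Gm51483 (111.4 kb) and Zkscan2 to Hs3st4 (111.0 kb). Snrpn is an imprinted gene of the nervous system. Chromosome 7 differed between the lists outside deserts as well. NPC peaks covered 14.6% of its remaining sequence, line A peaks 11.1% and line B peaks 3.99%. Over all autosomes these values were 6.13%, 13.4% and 11.7%.

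**Figure D4:**
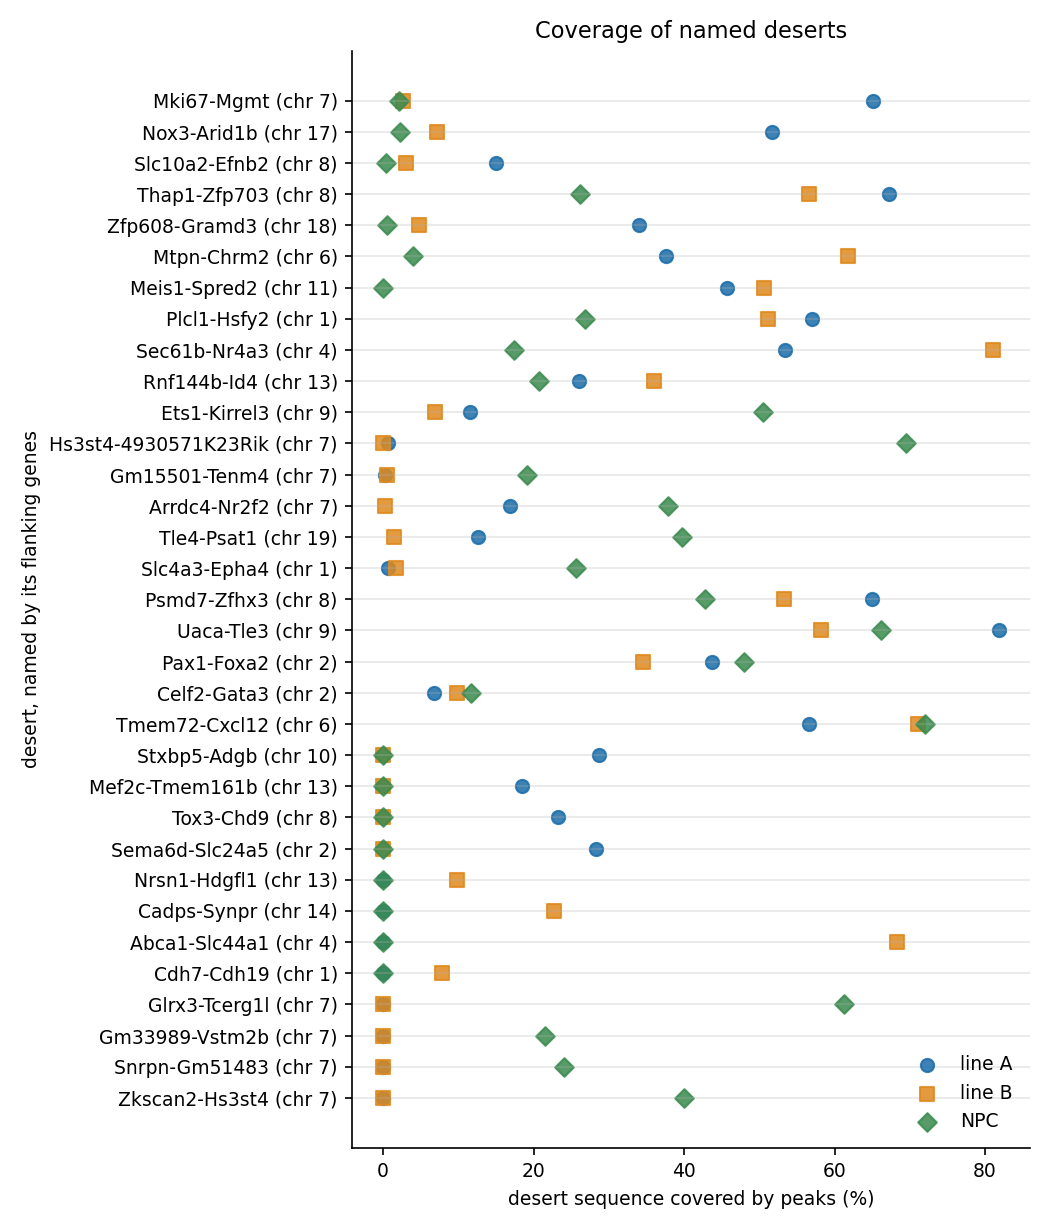
Share of each named desert that was covered by H3K27me3 peaks (x axis, %) in line A (circles), line B (squares) and NPC (diamonds), for the deserts with the most covered length in each list, in all lists and in a single list. The Uaca-Tle3 and Tmem72-Cxcl12 deserts are at 56.6% or more in each list, and the last 12 rows have coverage in 1 list.

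Deserts beside homeobox and other developmental factor genes had a larger share with a peak than all deserts in each list. With these kinds of gene taken singly, only in line A did the counting intervals lie above the share of all deserts. Of 1376 deserts between 2 gene records, 62.9% held a line A peak, 66.4% a line B peak and 62.4% an NPC peak. For the 55 deserts that adjoin a listed homeobox factor gene the counts were 44 (80.0%, interval 67.0 to 89.6%), 40 (72.7%, interval 59.0 to 83.9%) and 41 (74.5%, interval 61.0 to 85.3%). For 112 deserts beside other developmental transcription factor genes they were 88 (78.6%, interval 69.8 to 85.8%), 83 (74.1%, interval 65.0 to 81.9%) and 76 (67.9%, interval 58.4 to 76.4%), and for 51 beside secreted signals and their antagonists 33 (64.7%), 38 (74.5%) and 38 (74.5%). In all lists together a peak stood in 31, 55 and 21 of these deserts (56.4%, 49.1% and 41.2%), against 37.6% of all. The median covered share beside homeobox genes was 14.7% for line A, 1.80% for line B and 3.56% for NPC, against 1.38%, 0.975% and 0.836% over all deserts.

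Long deserts held a peak more often in line B and NPC, and deserts beside the developmental genes were longer over the 3 lists combined (median 315 kb, against 221 kb for all), although those beside secreted signals were not (194 kb). Among deserts of 100 to 500 kb, a peak stood in 81.7%, 74.2% and 72.0% of the 93 with a developmental gene for line A, line B and NPC, against 67.3%, 65.7% and 63.3% of the 452 without. The median covered share there was 7.74%, 2.05% and 3.01%, against 2.56%, 1.15% and 1.11%. The deserts beside neuronal adhesion and synapse genes were longer still (median 1005 kb for 101 deserts). A peak stood in 48 of them (47.5%) for line A, 73 (72.3%) for line B and 84 (83.2%) for NPC. Deserts of 1000 kb or more had one in 64.9%, 89.7% and 93.0%. No difference between these classes was tested, since neighbouring deserts can share a flanking gene and the lists have no replicates.

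**Figure D5:**
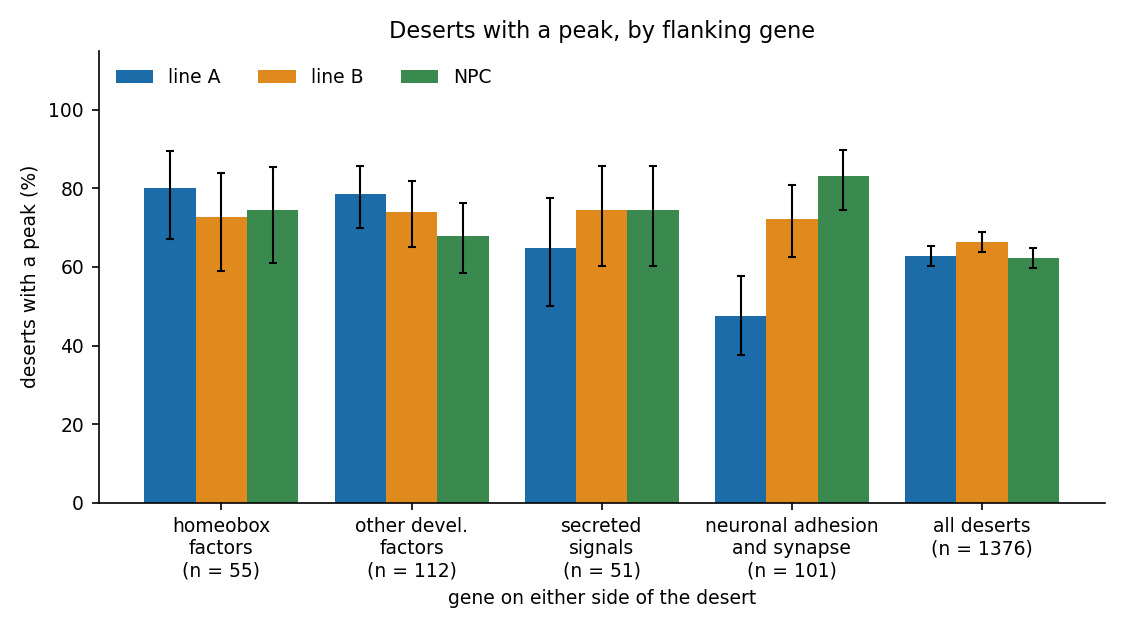
Share of deserts with at least 1 peak (y axis, %) by the gene on either side (x axis), with bars for line A, line B and NPC and 95% exact binomial intervals for counting error. Beside neuronal adhesion and synapse genes the share is 47.5% in line A and 83.2% in NPC, while over all deserts the lists lie between 62.4% and 66.4%.

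A desert could be covered although the flanking regulator itself was not. Of the 183 listed developmental genes that flank a desert, 147 (80.3%) had a line A desert peak beside them, 144 (78.7%) a line B peak and 139 (76.0%) an NPC peak. Of all deserts between 2 records 62.9%, 66.4% and 62.4% held a peak, which is not a matched share because a gene can flank 2 deserts. A peak within 2 kb of the gene record stood at 113, 117 and 109 of the 183. Among all 2344 protein-coding genes that flank a desert the shares with such a peak were 38.0%, 40.9% and 38.7%. Over all 20560 protein-coding genes they were 33.0%, 33.7% and 26.7%. In line A a desert peak accompanied 80.5% of the genes with such a peak and 80.0% of those without. In line B these shares were 82.1% and 72.7%, and in NPC 88.1% and 58.1%.

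Among the homeobox genes with the most covered flanking deserts, Zfhx3 and Isl1 had peaks on the gene record in each list, while Meis1, Zeb2 and Irx5 had 0 kb covered there in each. Around Meis1 line A peaks covered 441 kb of desert, line B peaks 376 kb and NPC peaks 0.765 kb. Beside Zeb2, which encodes a repressor of neural crest and mesenchyme, the values were 399, 148 and 41.9 kb. Around Irx5, of the Iroquois cluster on chromosome 8, they were 340 kb (72.4% of the flanking desert sequence), 44.2 kb and 19.5 kb. The deserts of Irx5 end at Irx3 and Irx6 on their other sides, and these had peaks within 2 kb of the record. Irx6 had 9.70, 9.93 and 1.76 kb covered there in line A, line B and NPC. Irx3 had 0.435 and 2.01 kb in the lines and 0 kb in NPC. Isl1, which specifies motor neurons and marks heart progenitors, was highest in NPC, at 301 kb, against 123 kb in line A and 60.5 kb in line B. Zfhx3 had 389, 289 and 327 kb.

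Of the other developmental factor genes, Zfp703 had no peak on its record in any list beside its widely covered desert. Nr2f2 had none in the fibroblast lists and 1.39 kb in NPC. Around Foxa2 the deserts were covered over 268 kb in line A, 162 kb in line B and 239 kb in NPC, and around Nr5a2, a nuclear receptor of liver and pancreas, over 293, 145 and 10.1 kb. Pax1 and Gata3 had peaks on the gene in each list. The secreted signals were led by Gdf6, a BMP-family ligand of joints, at 47.3 kb in line A, 209 kb in line B and 14.8 kb in NPC. Slit2, a repulsive axon guidance ligand, had 145, 28.4 and 61.2 kb, Fgf20 100.4, 27.4 and 76.2 kb and Bmp2 38.3, 89.5 and 60.2 kb. The neurotrophin gene Ntf3 had 1.21, 104.5 and 48.6 kb. Efna5, in the same gene list although its product is anchored to the cell surface, had 0, 38.5 and 145 kb. Among neuronal adhesion genes, Kirrel3, Tenm4, Pcdh7 and Cntn3 had most of their desert coverage in NPC, at 772, 533, 271 and 212 kb. Adgrl3 (621, 148 and 251 kb in line A, line B and NPC) and Cdh18 (208, 199.6 and 39.7 kb) had more in line A.

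Deserts with no peak at either flanking gene held a peak least often. In line A a desert peak stood in 49.2% of the 559 deserts with no line A peak within 2 kb of either gene, in 68.3% of the 609 with 1 such gene and in 83.7% of the 208 with both. In line B the shares were 51.1%, 70.3% and 86.8%, and in NPC 43.1%, 72.1% and 79.8%. The median length of these classes was between 193 and 342 kb, and only in line A was it alike in all 3 (221, 223 and 215 kb).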

How the data were processed

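The deposited files were 3 lists of H3K27me3 peaks, given by the authors for the series as a whole, with a chromosome, start and end for each peak and no header, score or p-value. MACS2 2.1.1.20160309, deepTools, DESeq2, Picard and Bowtie2 2.2.9 appear in the submitters' processing notes, as do the genome builds dm6 and mm10, without a stated role. The peak threshold, control and pooling are not given there or in the labels. No signal or read total was analysed, so depth is unknown. Samples were grouped from titles and source names into 13 groups. No library entered on its own, so no replicate was used.

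BED starts were read as 0-based and are printed 1-based. A RefSeq table of GRCm38.p6, the assembly of mm10, gave 20665 protein-coding records on autosomes. Of these, 105 that end below 3 Mb, where mm10 has no assembled sequence, were left out as records on other scaffolds. Distance was the number of bases between a peak and the nearest record. Covered lengths count the part of every peak inside a desert, and a desert with a peak held at least 1 whole peak. Genes at peaks were those with a peak within 2 kb of the record.

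The design allowed no test, so counts, medians and shares are given, with 95% Clopper-Pearson intervals. The members, the 4 gene lists, the named deserts and their rule were chosen with earlier results of these data known. Named deserts were the 6 with the most covered length per list, the 8 with the largest minimum over lists, and the 4 per list covered in that list only, named peaks the 3 widest per list, and named flanking genes the 6 per gene list with the most covered desert. An item that the rule names is not reported here. Alternatives changed the distance, the gene records, the overlap, the width and the chromosomes. Interval code was tested on simulated data. Python 3.11.15, numpy 2.4.6, pandas 2.3.3 and scipy 1.17.1 were used. Promoter and miRNA sequences are from RefSeq, GRCm38.p6.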

Additional observations from a re-analysis of the deposited data

How the results depend on the processing

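The number of desert peaks followed the limit of distance. At 50000 bp it was 25094 in line A and 24851 in line B, at 200000 bp 7236, 8375 and 7007 in line A, line B and NPC, and with all gene records in place of protein-coding ones 2618, 3225 and 2587. Predicted names left out, or distance from the middle of the peak, moved no count by over 1.5 times. The difference in median width (desert minus other peaks) kept its sign in each setting. It was -289 bp in line A and -342 bp in line B at 50000 bp, -374.5, -403 and -277 bp in line A, line B and NPC at 200000 bp, and -1351.5, -1488 and -588 bp with peaks less than 3000 bp apart joined. With 50% of both peaks shared, the overlap of desert peaks was 6.68% for line A in line B, 3.94% for line A in NPC, 6.63% for line B in line A, 2.80% for line B in NPC, 5.42% for NPC in line A and 3.89% for NPC in line B. Among the other peaks these shares were 13.5%, 5.56%, 14.4%, 4.36%, 11.7% and 8.64%, in the same order. For desert peaks of 1000 bp or more they were 39.9%, 26.5%, 47.2%, 22.5%, 31.4% and 23.7%. The other peaks of that width had 61.2%, 31.9%, 67.8%, 29.8%, 58.8% and 49.9%. Without chromosome 7 line A in line B was 32.5%, line A in NPC 19.3%, NPC in line A 27.7% and NPC in line B 22.3%. The other peaks then had 52.5%, 22.9%, 54.3% and 48.5%. With at least 5000 bp covered in place of any peak, deserts beside developmental genes passed in 60.7% for line A, 55.6% for line B and 54.7% for NPC, and those beside neuronal adhesion and synapse genes in 33.7%, 38.6% and 65.3%, against 47.2%, 43.0% and 43.2% of all deserts. In line B the share beside neuronal adhesion and synapse genes was thus below that of all deserts, whereas with any peak it was above (72.3% against 66.4%). The deserts beside these genes were long (median 1005 kb), and deserts of 1000 kb or more passed in 49.7%, 57.8% and 80.5% for line A, line B and NPC. The covered share of deserts moved by less than its spread over autosomes. That spread includes chromosome 7, at 17.98% in NPC, so it could hardly show a move when chromosome 7 was left out. In that setting the NPC share was 4.04%, against 4.57% with all autosomes. Coverage by distance without chromosome 7 was added after seeing the data. No paired analysis was possible because the lists carry no libraries. The causes of these shifts were not tested. Positions without heights limit the comparison, since peak calls depend on depth, which is unknown, and unmappable sequence in deserts was not masked.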

Other observations

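Some deserts hold arrays of genes that the RefSeq table does not list as protein-coding. The variable (V) segments of immunoglobulin and T-cell receptor genes, which are joined by recombination in lymphocytes, gave 459 desert records. Line A peaks met 1 of them (0.218%), line B peaks 9 (1.96%) and NPC peaks 3 (0.654%), against 6.39%, 4.66% and 4.57% of all desert sequence covered. Among 1848 pseudogene records in deserts the shares with a peak were 7.95%, 6.87% and 4.06%. A record was met by an overlap of 1 bp or more, whereas the covered share counts bases. All 168 heavy-chain V segments on chromosome 12 (113653291 to 115920572) were without a peak in each list. On chromosome 14, among the 129 segments of the T-cell receptor alpha and delta locus (52654817 to 54075515), line A peaks met 1, line B peaks 8 and NPC peaks 2.

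In the imprinted miRNA cluster between Rtl1 and Dio3 on chromosome 12, line B peaks met the hairpins Mir379, Mir299a, Mir299b and Mir329 and a line A peak met Mir382. NPC peaks met none of these 5 hairpins. Over all 100 desert hairpins with a RefSeq sequence, line A peaks met 6, line B peaks 9 and NPC peaks 7. Hairpins of this cluster without a peak were not counted, so no share of the cluster can be given. The 5 were named after their values were seen, because a fibroblast peak met them, so the lack of NPC peaks on them partly follows from that choice. Mir299a and Mir299b overlap on opposite strands and are the same site.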
